A study of Mus musculus with 4 samples.

Results

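The genes described here encode the Myc, Max and Mxd network of transcription factors, measured in myeloid progenitors that carried or lacked a *Bcor* mutation. The members were chosen by name, as a list of 10 genes, and 9 of them had a row in the deposited table of 12067 genes. *Mycn* had no row, so that its expression was not analysed here. The measurements were 3′ mRNA counts (Quant-seq) of KL cells, a bone marrow gate of myeloid progenitors that carry c-Kit but neither Sca-1 nor markers of mature lineages. They were sorted by donor CD45.2 from *Ptprca* recipients, whose own leukocytes carry CD45.1, 20 weeks after a graft of whole bone marrow. There were 2 libraries of BcorΔE9-10 origin (genotype scl-Cre-ERT +; Bcorfl/y) and 2 of BcorWT origin (Bcorfl/y). Both groups carried the floxed *Bcor* allele on their single X chromosome, and the study describes tamoxifen treatment of the donors of both groups and sub-lethal irradiation of the recipients. They differed in the tamoxifen-dependent Cre transgene, which is driven by a stem cell element of Scl (*Tal1*) and removes exons 9 and 10, so that the reading frame shifts to an early stop. KL cells with the deletion are thus the progeny of stem cells in which it took place. Whether each library came from 1 recipient or several is not given in the sources used here, so that p-values measure the spread between libraries.

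Myc proteins bind DNA only as a pair with Max, at sites called E-boxes, and switch on genes for growth, ribosome production and entry into the cell cycle. The Mxd proteins (Mxd1, Mxd3, Mxd4 and Mxi1) and Mnt compete with Myc for Max and bring the Sin3 and histone deacetylase corepressors to the same sites. Mga also pairs with Max and is part of a Polycomb complex, PRC1.6, whereas Bcor belongs to another complex of that family, PRC1.1. Mlx is a partner of Mondo proteins, which respond to glucose, and can pair with some Mxd proteins as well. In the myeloid lineage Myc is known for its level in dividing progenitors, and Mxd1 for its rise as granulocytes mature.

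The E-box that these proteins share was searched for in the promoters of their own genes, to show which members hold a binding word of the network. RefSeq promoters on GRCm38.p6, each a window of 300 bases from 250 before to 50 after a transcript start, were found for 9 members in 11 windows (3 of them for *Mxi1*), *Mycn* included, and *Myc* had no entry. The motif searched was CACGTG, which reads the same on both strands. It was found in 4 of the 11 windows, those of *Max*, *Mlx*, *Mnt* and *Mxd4*, while 7.15% of all 32851 windows held it. The match is a description of the letters and not of binding, which was not measured in these libraries. The stretch around each match is printed 5′ to 3′ on the strand of the gene, with the motif in capitals, and ends before the transcript start or, in *Max*, where the motif spans the start, with the motif.

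*Max*, chr12:76962246-76962311, minus strand, with the motif from base -3 to base 3 about the start: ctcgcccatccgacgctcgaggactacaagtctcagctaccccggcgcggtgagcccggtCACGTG

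*Mlx*, chr11:101087190-101087289, plus strand, with the motif from base -40 to base -35: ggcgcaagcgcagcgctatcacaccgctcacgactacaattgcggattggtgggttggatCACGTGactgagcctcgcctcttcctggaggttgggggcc

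*Mnt*, chr11:74830741-74830846, plus strand, with the motif from base -123 to base -118: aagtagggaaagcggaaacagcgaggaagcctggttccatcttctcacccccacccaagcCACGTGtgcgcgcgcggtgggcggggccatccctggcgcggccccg

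*Mxd4*, chr5:34187884-34187960, minus strand, with the motif from base -219 to base -214: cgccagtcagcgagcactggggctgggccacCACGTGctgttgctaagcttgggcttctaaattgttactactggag

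The libraries held between 3825289.5 and 6253100.5 counts. Levels are given as CPM, a gene's count relative to its library's total, scaled by edgeR's TMM factors, on which a floor of 3 counts is 0.489 to 0.876 CPM. All members lay well above that floor, with 38 to 1278 counts in a library. Counts of *Bcor* do not check the genotype labels, because the deleted exons are internal and the reads come from the 3′ end. It had 104 and 113 counts in BcorΔE9-10 and 58 and 79 in BcorWT (replicates 1 and 2). The BcorWT libraries were the least alike of the 6 pairs, with a Pearson correlation of 0.893 across genes, against 0.947 between the BcorΔE9-10 libraries. *Gm42418*, a single non-coding gene, held 27.9% of the counts of BcorWT replicate 1 and 1.43% of those of BcorWT replicate 2. *Xist*, expressed from the inactive X of female cells, was at 2.40 and 3.91 CPM in BcorΔE9-10 and at 18.7 and 19.0 CPM in BcorWT (edgeR adjusted p = 0.419), where the methods name male mice for molecular work and female recipients. Its part in the results was not tested. The progenitor markers fixed for these cells were all in the table (12 of 12), with a summed level between 8488 and 11280 CPM. Among them 3 were higher and 2 lower without overlap (16.8% and 17.1% of all genes), and 2 genes of erythroid progenitors had an unadjusted p under 0.05 (4.42% of all genes) and higher levels in BcorΔE9-10, with 0 past adjustment in edgeR. *Klf1* was at 4.44 and 2.77 CPM against 0.292 and 0.753 CPM, and *Car1* at 26.1 and 20.2 CPM against 9.34 and 4.33 CPM. In BcorWT *Klf1* had only 1 and 4 counts, and its value in BcorWT replicate 1 lay under the floor. *Gata1*, also an erythroid gene of that list, overlapped between the groups, at 4.07 and 1.63 CPM against 1.46 and 4.14 CPM. Its log2 fold change was -0.02.

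No member of the network passed the test between the genotypes, *Myc* and *Max* included, and for 7 of the 9 the BcorΔE9-10 and BcorWT libraries overlapped. At an adjusted p under 0.05 in edgeR's quasi-likelihood test (Benjamini-Hochberg over all genes), 0 of the 9 members and 0.0166% of all genes (2 of 12067) were called. At an unadjusted p under 0.05 the count was again 0 of 9, beside 4.42% of all genes. The 95% interval of the log2 fold change held 0 for all 9. *Mxi1* and *Mlx* were the members whose libraries did not overlap, both higher in BcorΔE9-10, where 16.8% of all genes did not overlap in that direction. None was lower without overlap, beside 17.1% of all genes. Log2 fold changes (BcorΔE9-10 against BcorWT) were above 0 for 4 members and below 0 for 5, with a median of -0.20 beside -0.03 over all genes tested. Counts of bulk RNA cannot tell fewer cells of a type from less RNA per cell.

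**Figure D1:**
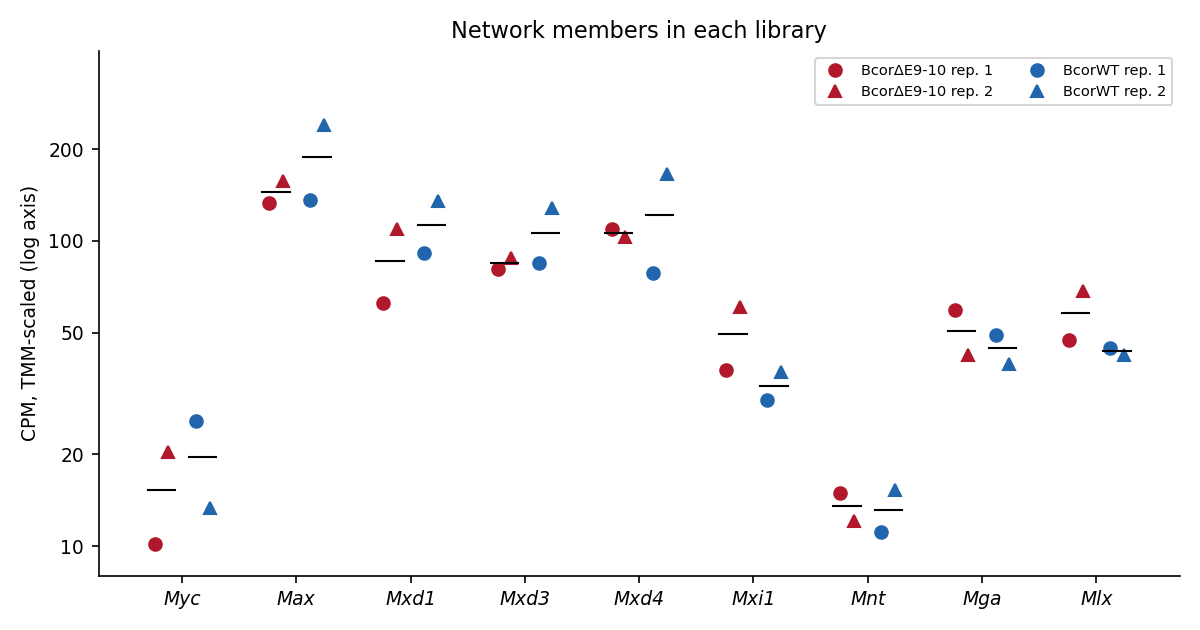
Level of each network member in CPM (TMM-scaled, log axis) in the 4 libraries, with a bar at each group's mean. The 2 BcorΔE9-10 points lie above both BcorWT points for *Mxi1* and *Mlx* only, and BcorWT replicate 2 is the highest point for *Max*, *Mxd1*, *Mxd3*, *Mxd4* and *Mnt*.

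*Myc* (ENSMUSG00000022346, chromosome 15 from 61985391 to 61990374, plus strand, GRCm38) encodes the activator of the network. It had 55 and 125 counts in BcorΔE9-10 replicates 1 and 2 and 88 and 71 counts in BcorWT replicates 1 and 2, which are 10.2 and 20.4 CPM against 25.7 and 13.4 CPM. *Myc* was thus highest in BcorWT replicate 1 and lowest in BcorΔE9-10 replicate 1, while BcorΔE9-10 replicate 2 lay above BcorWT replicate 2, so that the groups overlapped. The replicates differed 2.00-fold within BcorΔE9-10 and 1.92-fold within BcorWT. The means were 15.3 ± 7.22 CPM (SD, n = 2) in BcorΔE9-10 and 19.5 ± 8.72 CPM in BcorWT. This gave a log2 fold change of -0.34 (standard error, SE, 0.49, adjusted p = 0.961 in edgeR), with a 95% interval from -1.48 to 0.80, and so these libraries leave room for a level between 0.358 and 1.74 times that of BcorWT. When 1 library was left out it ranged from -0.93 without BcorΔE9-10 replicate 2 to 0.19 without BcorWT replicate 1.

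*Max* (ENSMUSG00000059436, chromosome 12 from 76937269 to 76962201, minus strand) encodes the partner with which Myc, the Mxd proteins, Mnt and Mga bind DNA. It had 719 and 966 counts in BcorΔE9-10 and 465 and 1278 in BcorWT, or 133 and 157 CPM against 136 and 240.5 CPM. Of these libraries 3 were close together, and BcorWT replicate 2 stood above them. On the log2 scale *Max* differed by -0.38 (SE 0.37, adjusted p = 0.945 in edgeR, 95% interval -1.24 to 0.49). It was 0.10 without BcorWT replicate 2 and -0.73 without BcorWT replicate 1.

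*Mxd1* (ENSMUSG00000001156, chromosome 6 from 86647042 to 86669161, minus strand), the Mxd gene best known from granulocyte maturation, had 338 and 670 counts in BcorΔE9-10 and 312 and 718 in BcorWT. Its levels were 62.5 and 109 CPM against 91.1 and 135 CPM, so that in each genotype replicate 2 was the higher library and the groups overlapped. Its log2 fold change was -0.40 (SE 0.39, adjusted p = 0.945 in edgeR, 95% interval -1.30 to 0.50), between -0.86 and -0.05 when 1 library was left out. All 12 late neutrophil markers were in the table, *Ngp*, *S100a8* and *S100a9* among them. Their summed level was 63630 and 155700 CPM in BcorΔE9-10 and 94870 and 144400 CPM in BcorWT. Like *Mxd1*, the sum was lower in replicate 1 than in replicate 2 of each genotype and lowest in BcorΔE9-10 replicate 1. The sum was highest in BcorΔE9-10 replicate 2, whereas *Mxd1* was highest in BcorWT replicate 2. In BcorWT *Ngp* alone was at 16821.9 and 54003.5 CPM. Among single markers *S100a8*, *Camp* and *Itgam* were not lower in replicate 1 of BcorWT. The lineage depletion of the sort is directed at mature cells of this kind, and the part of these markers in the *Mxd1* level was not tested. The groups overlapped for all 12 markers (16.8% of all genes were higher and 17.1% lower without overlap), and 0 of them had an unadjusted p under 0.05, beside 4.42% of all genes.

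*Mxd3* (ENSMUSG00000021485, chromosome 13 from 55325168 to 55329823, minus strand), the Mxd gene linked to dividing cells, had 438 and 541 counts in BcorΔE9-10 and 290 and 680 in BcorWT. Its levels were 80.9 and 88.2 CPM against 84.7 and 128 CPM, and again 3 libraries were close while BcorWT replicate 2 was higher. *Mxd3* differed by -0.33 on the log2 scale (SE 0.34, adjusted p = 0.946 in edgeR, 95% interval -1.11 to 0.45), and by -0.0024 without BcorWT replicate 2. The last exon of *Mxd3* shares 105 bases with *Prelid1*, a gene for a mitochondrial lipid transfer protein on the opposite strand, at the 3′ end of *Mxd3*. *Prelid1* had 800 and 920 counts in BcorΔE9-10 and 509 and 1197 in BcorWT, so that the ratio of *Mxd3* to *Prelid1* counts lay between 0.547 and 0.588 in all 4 libraries. Whether the counting used the strand is not given in the sources used here, and the 2 genes' counts are uncertain to that extent.

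*Mxd4* (ENSMUSG00000037235, chromosome 5 from 34173883 to 34187720, minus strand) had 593 and 631 counts in BcorΔE9-10 and 268 and 880 in BcorWT. Its BcorΔE9-10 libraries, at 109.6 and 103 CPM, lay between the BcorWT libraries, at 78.3 and 166 CPM. The BcorWT replicates differed 2.12-fold and the BcorΔE9-10 replicates 1.07-fold. A log2 fold change of -0.20 was fitted (SE 0.40, adjusted p = 0.968 in edgeR, 95% interval -1.14 to 0.73). Its sign turned with the library left out, from -0.64 without BcorWT replicate 1 to 0.44 without BcorWT replicate 2. The 3′ end of *Mxd4* shares 514 bases with *Gm42846*, an antisense gene that has no row in the table.

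*Mxi1* (ENSMUSG00000025025, chromosome 19 from 53310518 to 53375810, plus strand), a further member of the Mxd group of repressors, had 205 and 374 counts in BcorΔE9-10 and 103 and 197 in BcorWT. Its levels were 37.9 and 61.0 CPM against 30.1 and 37.1 CPM. Both BcorΔE9-10 libraries were higher than both BcorWT libraries, but the lower of the former (replicate 1) and the higher of the latter (replicate 2) nearly met. The means were 49.4 ± 16.3 CPM (SD, n = 2) and 33.6 ± 4.94 CPM. A log2 fold change of 0.56 was the highest among the members (SE 0.36, adjusted p = 0.945 in edgeR, unadjusted p = 0.159), with a 95% interval from -0.27 to 1.38. It stayed above 0 in all settings run and ranged from 0.18 without BcorΔE9-10 replicate 2 to 0.86 without BcorΔE9-10 replicate 1. *Mxi1* was the only Mxd gene with a fold change above 0, and none of the 4 passed the test. As a share of the counts of the 4 Mxd genes together, which does not depend on the scaling of libraries, *Mxi1* made up 13.0 and 16.9% in BcorΔE9-10 and 10.6 and 7.96% in BcorWT. *Mxd1* made up 21.5 and 30.2% against 32.1 and 29.0%, and *Mxd3* 27.8 and 24.4% against 29.8 and 27.5%. *Mxd4* made up 37.7 and 28.5% against 27.5 and 35.6%.

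**Figure D2:**
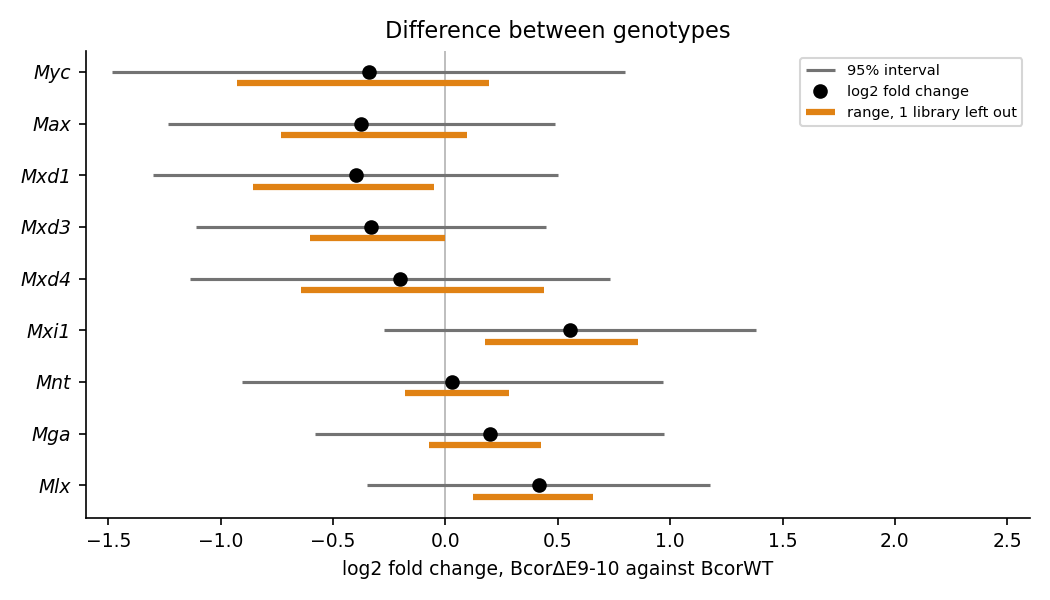
The log2 fold change of each member (BcorΔE9-10 against BcorWT, black point) with its 95% interval (grey) and the range over the fits with 1 library left out (orange). Every grey line crosses 0, and the orange ranges of *Mxi1* (0.18 to 0.86), *Mlx* (0.12 to 0.66), *Mxd1* (-0.86 to -0.05) and *Mxd3* (-0.60 to -0.0024) stay on 1 side of it.

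*Mnt* (ENSMUSG00000000282, chromosome 11 from 74830920 to 74845725, plus strand), a Max-binding repressor found in most cells, had 81 and 74 counts in BcorΔE9-10 and 38 and 81 in BcorWT. Its levels were 15.0 and 12.1 CPM against 11.1 and 15.2 CPM, with the BcorΔE9-10 libraries between the BcorWT libraries. Its log2 fold change was 0.03 (SE 0.40, adjusted p = 0.995 in edgeR), and the 95% interval from -0.91 to 0.97 covers levels from 0.533 to 1.95 times that of BcorWT.

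*Mga* (ENSMUSG00000033943, chromosome 2 from 119897228 to 119969581, plus strand), the scaffold of PRC1.6, had 322 and 259 counts in BcorΔE9-10 and 169 and 210 in BcorWT. Its levels were 59.5 and 42.2 CPM against 49.4 and 39.5 CPM, and here replicate 1 was the higher library of each genotype. *Mga* differed by 0.20 on the log2 scale (SE 0.34, adjusted p = 0.963 in edgeR, 95% interval -0.58 to 0.97), and by -0.072 without BcorΔE9-10 replicate 1.

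*Mlx* (ENSMUSG00000017801, chromosome 11 from 101087277 to 101092207, plus strand), whose promoter holds the E-box shown above, had 256 and 421 counts in BcorΔE9-10 and 153 and 225 in BcorWT. Its levels were 47.3 and 68.6 CPM against 44.7 and 42.3 CPM, so that BcorΔE9-10 replicate 2 stood apart and replicate 1 was only slightly above BcorWT. For *Mlx* the log2 fold change was 0.41 (SE 0.33, adjusted p = 0.945 in edgeR, 95% interval -0.35 to 1.18), lowest at 0.12 without BcorΔE9-10 replicate 2. The 3′ end of *Mlx* shares 385 exon bases with *Psmc3ip*, a meiotic recombination gene on the opposite strand. *Psmc3ip* had 278 and 387 counts in BcorΔE9-10 and 132 and 222 in BcorWT and did not overlap between the groups either, with a log2 fold change of 0.51 (SE 0.31, adjusted p = 0.945 in edgeR). The ratio of *Mlx* to *Psmc3ip* counts was 0.921 and 1.09 in BcorΔE9-10 and 1.16 and 1.01 in BcorWT. The strand used in counting is not given, and whether reads in the shared bases entered both counts was not tested. A pair read below, *Cdk4* and *Tspan31*, shares 641 exon bases on opposite strands and had 566 to 1154 and 28 to 75 counts.

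**Figure D3:**
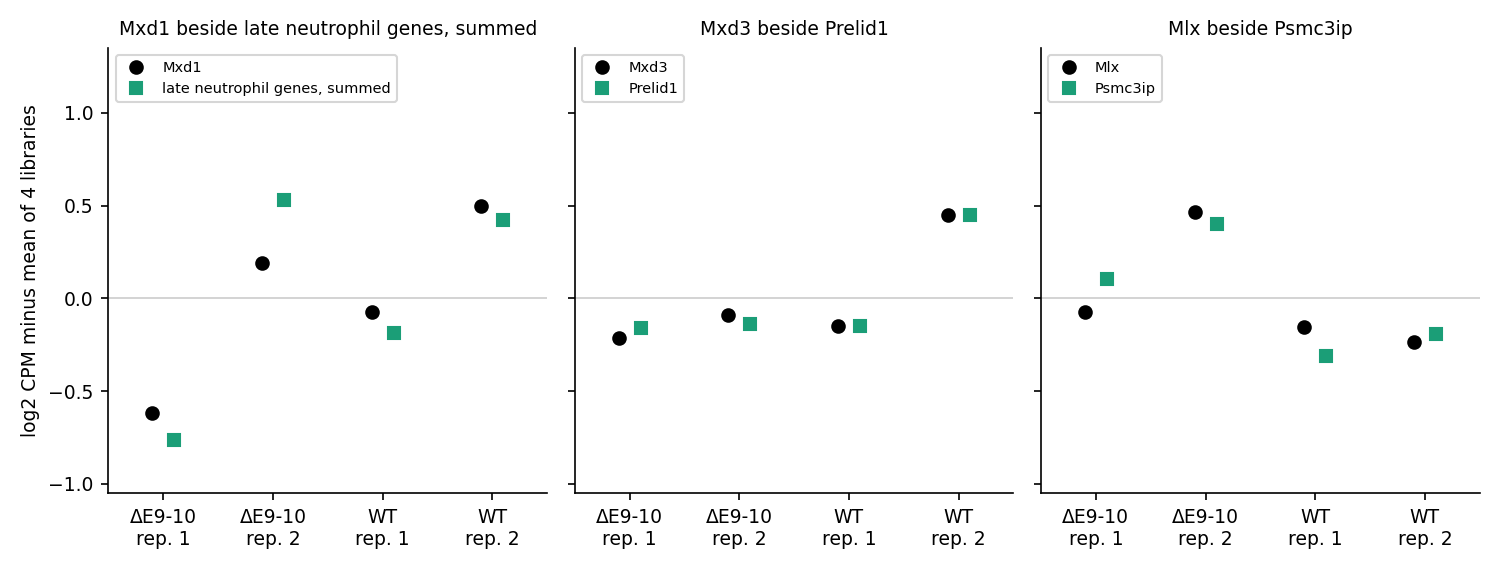
Log2 CPM of *Mxd1*, *Mxd3* and *Mlx* (black circles) in each library, less the mean of the 4 libraries, beside the summed late neutrophil markers, *Prelid1* and *Psmc3ip* (green squares). *Mxd1* and the neutrophil sum are both lowest in BcorΔE9-10 replicate 1 (-0.62 and -0.76). *Mxd1* is highest in BcorWT replicate 2 (0.50) and the neutrophil sum in BcorΔE9-10 replicate 2 (0.53). *Mxd3* and *Prelid1* are both at 0.45 in BcorWT replicate 2.

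Ratios within a library were read next, since they are free of scaling. For each *Myc* count there were 28.6 and 17.7 counts of the 4 Mxd genes together in BcorΔE9-10 and 11.1 and 34.9 in BcorWT, so that the BcorWT libraries lay on either side of the BcorΔE9-10 libraries. The log2 ratio of *Myc* to the summed Mxd genes was -4.49 ± 0.49 (SD, n = 2) in BcorΔE9-10 and -4.30 ± 1.17 in BcorWT, a difference of -0.20 (exact two-sided permutation test, p = 1). With 2 libraries against 2, that test cannot give a p below 0.333. The log2 ratio of *Mga* to *Max* was -1.16 and -1.90 in BcorΔE9-10 and -1.46 and -2.61 in BcorWT, a difference of 0.50 with overlapping groups (exact two-sided permutation test, p = 0.667). It was -0.069 without BcorWT replicate 2.

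The order of the libraries differed from member to member. BcorWT replicate 2 had the highest level of 5 of the 9 members (*Max*, *Mxd1*, *Mxd3*, *Mxd4* and *Mnt*), where it was the highest library for 34.5% of all genes. BcorΔE9-10 replicate 1 had the lowest level of 4 (*Myc*, *Max*, *Mxd1* and *Mxd3*), beside 20.9% of all genes. *Myc* did not follow *Max*, being lower in BcorWT replicate 2 than in BcorWT replicate 1 by 0.92 on the log2 scale where *Max* was higher by 0.82. The median absolute log2 difference between replicates was 0.49 for the members and 0.31 for all genes in BcorΔE9-10, and 0.57 for the members and 0.57 for all genes in BcorWT. Without BcorWT replicate 1, *Max*, *Mxd3* and *Mxd4* had an unadjusted p under 0.05 and lower values in BcorΔE9-10, but 25.0% of all genes had such a p in that fit, in either direction, and no member passed adjustment there. That fit takes its spread from the BcorΔE9-10 pair alone and assumes that the lone BcorWT library varies likewise.

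**Figure D4:**
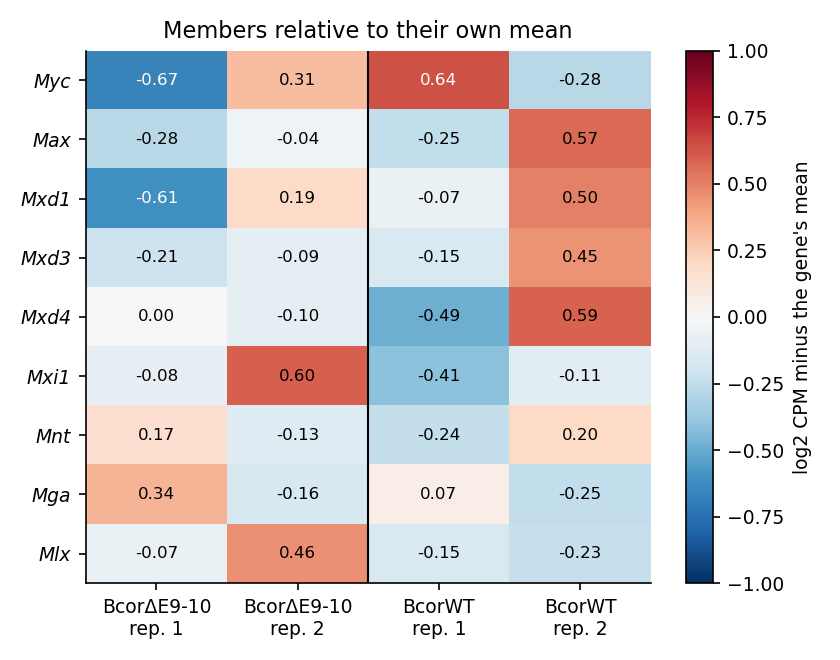
Log2 CPM of each member in each library, less the member's own mean over the 4 libraries (colour and printed value). *Max*, *Mxd1*, *Mxd3* and *Mxd4* are at 0.45 to 0.59 in BcorWT replicate 2, whereas *Myc* is at -0.28 there and at 0.64 in BcorWT replicate 1.

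The genes whose profile over the 4 libraries was closest to that of *Myc*, by Euclidean distance between centred log2 CPM, were *Gm12758* (distance 0.0592), *Memo1* (0.0663), *Hal* (0.0893), *Gm14123* (0.110) and *Tap2* (0.132). The profile rests on 4 values, and 226 genes lay within 0.5 of *Myc*, so that the likeness is a description of these libraries only. *Tap2*, a peptide transporter of antigen presentation, had 812 and 1938 counts in BcorΔE9-10 and 1195 and 1055 in BcorWT, low in the same library as *Myc*.

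Genes around the network were read from 10 lists with 103 different genes, of which 96 were in the table. At an unadjusted p under 0.05 there were 6 of these (6.25%, beside 4.42% of all genes), 1 higher and 5 lower in BcorΔE9-10, and 0 passed adjustment, with an edgeR adjusted p of 0.945 at the lowest. Their median log2 fold change was -0.04.

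The partners that act on chromatin included the 9 corepressor genes of the Mxd and Mnt proteins, such as *Sin3a*, *Sin3b*, *Hdac1* and *Hdac2*. Their median log2 fold change was -0.02. Without overlap there was 1, *Rbbp4*, a histone-binding subunit, higher in BcorΔE9-10 (beside 16.8% of all genes). It was at 251 and 240.1 CPM in BcorΔE9-10 against 181 and 183 CPM in BcorWT. Of the 10 coactivator genes of Myc, 4 did not overlap, all lower in BcorΔE9-10 (beside 17.1% of all genes), with a median of -0.27. *Kat2a*, the histone acetyltransferase Gcn5, had 148 and 155 counts in BcorΔE9-10 and 150 and 280 in BcorWT, or 27.4 and 25.3 CPM against 43.8 and 52.7 CPM (log2 fold change -0.88, SE 0.31, edgeR unadjusted p = 0.0242, adjusted p = 0.945). The 10 PRC1.6 partners of Mga had a median of 0.43, with 1 higher and 2 lower without overlap (16.8% and 17.1% of all genes). *L3mbtl2*, a chromatin-binding subunit of that complex, was at 16.4 and 19.2 CPM in BcorΔE9-10 and at 23.7 and 59.1 CPM in BcorWT (log2 fold change -1.22, SE 0.46, edgeR unadjusted p = 0.0298, adjusted p = 0.945), and BcorWT replicate 2 stood far above the other 3 libraries. *Yaf2*, a subunit shared by PRC1 variants, was at 14.8 and 23.8 CPM against 12.6 and 13.4 CPM.

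The genes that control Myc turnover, 9 of 10 in the table, had a median of -0.24. *Fbxw7*, the ubiquitin ligase subunit that marks Myc for degradation, was at 34.0 and 32.4 CPM in BcorΔE9-10 and 32.1 and 18.3 CPM in BcorWT. *Usp28*, a deubiquitinase that counters it, was at 4.07 and 2.93 CPM against 9.64 and 4.70 CPM (log2 fold change -1.02, SE 0.61, adjusted p = 0.945 in edgeR). Of the other network factors, *Mlxip* and *Zbtb17* (Miz1) had rows and *Mycl* and *Mlxipl* did not. *Mlxip*, which encodes the Mondo partner of Mlx, was at 18.7 and 17.3 CPM against 15.8 and 16.9 CPM. Of the 2 listed targets of Mlx and Mondo proteins, *Arrdc4* had no row. *Txnip* was at 214 and 209.6 CPM against 242 and 268 CPM, lower without overlap (17.1% of all genes). Its log2 fold change was -0.27 (SE 0.31, adjusted p = 0.952 in edgeR).

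Known targets of Myc were divided by function. The 20 ribosome biogenesis genes had a median log2 fold change of 0.06, with 1 higher and 4 lower without overlap (16.8% and 17.1% of all genes) and 15 overlapping. *Nip7* was highest among those that did not overlap, at 38.4 and 38.8 CPM against 33.0 and 25.4 CPM, and *Rrp9* was lowest, at 8.32 and 9.29 CPM against 13.7 and 15.6 CPM. Of the metabolism and growth genes, 19 of 20 were in the table, with a median of -0.37, 3 higher and 6 lower without overlap (16.8% and 17.1% of all genes). *Nme2*, a nucleoside diphosphate kinase, was at 195 and 183 CPM in BcorΔE9-10 and 313 and 403 CPM in BcorWT (log2 fold change -0.92, SE 0.32, edgeR unadjusted p = 0.0223, adjusted p = 0.945). It shares 573 exon bases with *Gm20390* on the same strand, so that its counts are uncertain. *Hspe1*, a mitochondrial chaperonin, was at 98.7 and 83.9 CPM against 169 and 149 CPM (log2 fold change -0.80, edgeR unadjusted p = 0.0345, adjusted p = 0.945). *Shmt2*, an enzyme of one-carbon metabolism, was at 29.4 and 27.7 CPM against 31.0 and 90.5 CPM, where BcorWT replicate 2 alone was high. *Ppat*, an enzyme of purine synthesis, was at 23.3 and 19.2 CPM against 17.5 and 13.2 CPM.

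Of the 10 cell cycle entry genes, 4 were lower and 1 higher without overlap (17.1% and 16.8% of all genes), with a median of -0.17. *Cdk4*, the G1 kinase, had 601 and 566 counts in BcorΔE9-10 and 574 and 1154 in BcorWT, or 111 and 92.3 CPM against 168 and 217 CPM (log2 fold change -0.92, SE 0.33, edgeR unadjusted p = 0.0228, adjusted p = 0.945). Its 3′ end shares 641 exon bases with *Tspan31* on the opposite strand, which had between 28 and 75 counts. *Cdc25a*, a phosphatase of the G1 to S transition, was at 173 and 186 CPM against 171 and 154 CPM. The genes that Myc represses with Miz1, 8 of 10 in the table, had a median of 0.06 and 2 higher without overlap (16.8% of all genes). *Cdkn1a*, the inhibitor p21, was at 33.5 and 23.8 CPM in BcorΔE9-10 and 14.0 and 14.9 CPM in BcorWT (log2 fold change 0.98, SE 0.36, edgeR unadjusted p = 0.0260, adjusted p = 0.945). *Cdkn2c*, another inhibitor, was at 27.7 and 35.4 CPM against 24.8 and 14.9 CPM.

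**Figure D5:**
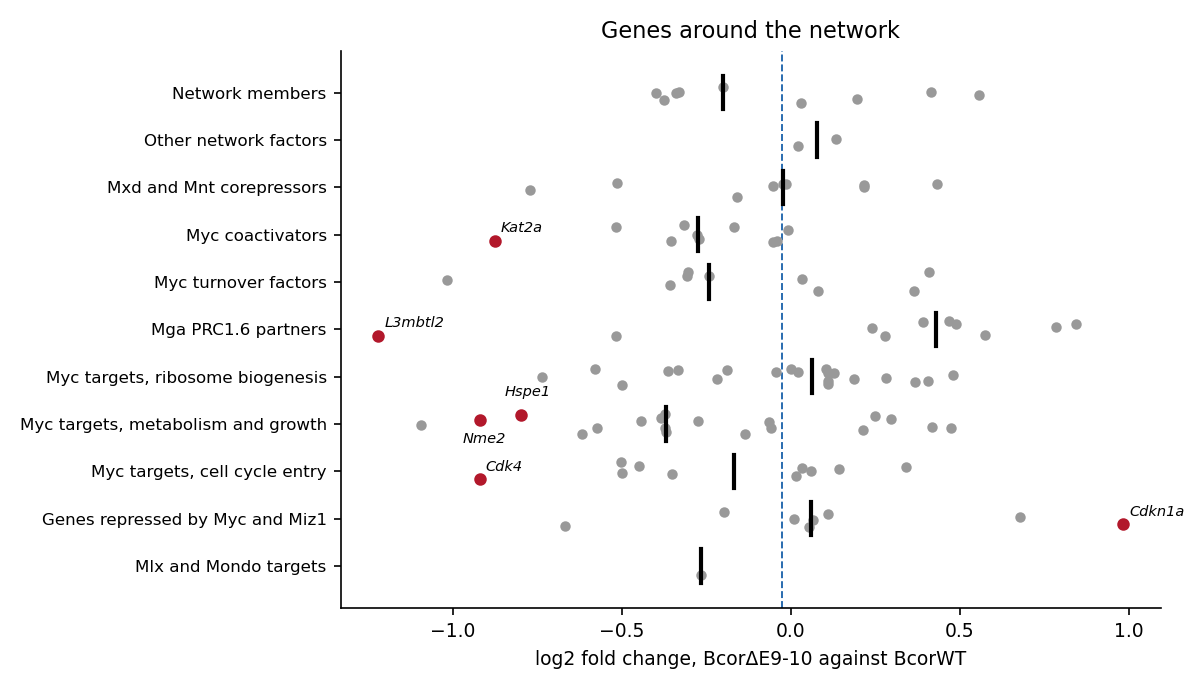
The log2 fold change (BcorΔE9-10 against BcorWT) of every gene of the network and of the 10 lists around it, with the list's median as a black bar and the median of all genes as a dashed line. The 6 red points have an unadjusted p under 0.05 in edgeR, of which *Cdkn1a* (0.98) alone lies above 0, and no point passes adjustment over all genes.

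Markers of other cells the sort could hold were read as lists. Of 9 B cell markers 4 had rows, with a summed level between 14.5 and 37.5 CPM, and *Cd79a* and *Ms4a1* had none. Of 9 T and NK cell markers 2 had rows, between 2.22 and 6.42 CPM, and *Cd3e* had none. The 8 eosinophil and basophil markers summed to 272 and 235 CPM in BcorΔE9-10 and 570 and 714 CPM in BcorWT, with 7 of 8 lower without overlap (17.1% of all genes) and 5 at an unadjusted p under 0.05 (4.42% of all genes), of which 0 passed adjustment (lowest edgeR adjusted p = 0.419). The 5 monocyte and macrophage markers with a row, out of 10, summed to 491 and 552 CPM in BcorΔE9-10 and 629 and 1462 CPM in BcorWT, with 4 of the 5 lower without overlap (17.1% of all genes) and 0 at an unadjusted p under 0.05. That sum was highest in BcorWT replicate 2, the library in which *Max*, *Mxd1*, *Mxd3*, *Mxd4* and *Mnt* were highest, as were 34.5% of all genes. Among single markers *Csf1r*, *Ly6c2* and *Cd68* were highest there, but *Cx3cr1* in BcorWT replicate 1 and *Ccr2* in BcorΔE9-10 replicate 2. The megakaryocyte markers (4 of 7 with a row) summed to 108 and 141 CPM against 109.5 and 266 CPM. Lower without overlap was 1 of the 4 (17.1% of all genes), which also had an unadjusted p under 0.05 (4.42% of all genes). The late erythroid markers (5 of 9) summed to 77.6 and 73.7 CPM against 23.9 and 54.9 CPM, with 4 higher and 1 lower without overlap (16.8% and 17.1% of all genes) and 1 higher at an unadjusted p under 0.05 (4.42% of all genes). The stem cell markers (3 of 6) summed to between 17.7 and 27.7 CPM, with 1 lower without overlap (17.1% of all genes). None of the markers in these lists passed adjustment in edgeR. Their part in the levels of the network genes was not tested.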

How the data were processed

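Donor-derived KL cells were measured by Quant-seq in 4 libraries. According to the methods and the submitters' processing notes, the authors removed low-quality reads, trimmed with cutadapt, mapped to mm10 (GRCm38) with HISAT2 and counted reads on genes with Subread. The deposited values are unnormalized counts. In BcorΔE9-10 replicate 2 and BcorWT replicate 1 the deposited values were handled like expected counts, because 1 gene is not whole there. All were rounded. How the table was reduced to these genes is not given in the sources used here.

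Counts were fitted with edgeR 4.0.16 in R 4.3.3 (filterByExpr, which removed 0 genes, TMM scaling, quasi-likelihood F test, prior count 0.125) on genotype alone, with Benjamini-Hochberg adjustment over all genes. A standard error was the log2 fold change divided by the square root of F, and 95% intervals used its degrees of freedom. CPM and log2 CPM (prior count 2 for profiles) used TMM factors. Quant-seq counts 1 fragment end per transcript, so values were not divided by length, and levels of different genes were not ranked. Intervals and floors (3 counts) do not cover PCR duplicates, as no molecular identifiers are described. Alternatives used limma 3.58.1 (voom) and DESeq2 1.42.0. Ratios were tested by exact permutation with scipy 1.17.1. Positions came from GENCODE M21 and promoters from RefSeq, both on GRCm38.

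The members and lists were chosen with earlier results of these data known. Genes were named by a rule: all members, *Bcor*, every list gene with an unadjusted p under 0.05, the highest and lowest log2 fold change of each list among genes that did not overlap, and the 5 nearest to *Myc*. A gene that this rule names is not reported here. Markers were given by list, but single markers were named after their values were seen. So were *Xist*, *Gm42418*, *Klf1*, *Car1*, *Gata1*, *Prelid1*, *Psmc3ip*, *Tspan31*, *Gm42846* and *Gm20390*.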

Additional observations from a re-analysis of the deposited data

How the results depend on the processing

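The direction of *Mxd1*, *Mxd3*, *Mxi1* and *Mlx* held in all 12 alternatives run for them, and that of the 5 other members in the 8 that left out no library. Leaving out 1 library in turn moved the log2 fold change from -0.93 to 0.19 for *Myc*, from -0.73 to 0.10 for *Max*, from -0.64 to 0.44 for *Mxd4*, from -0.18 to 0.28 for *Mnt* and from -0.072 to 0.43 for *Mga*. It moved the difference in the log2 ratio of *Myc* to the Mxd genes from -1.03 to 0.63, that of *Mga* to *Max* from -0.069 to 1.08, the members with an unadjusted p under 0.05 from 0 to 3 and the members without overlap from 2 to 8, where a lone library needs only to lie outside a pair. The share of all genes without overlap was not counted with a library left out, so that the count of members there cannot be judged. In the fits with 1 library left out the spread comes from the pair alone, and the lone library is assumed to vary likewise. No member passed adjustment in any setting, with adjusted p from 0.139 (*Max* without BcorWT replicate 1) to 1. Over all genes the calls numbered 2, but 4 with limma-voom, 5 with at least 10 counts in every library, 14 with the replicate block, 43 with DESeq2 and 6 to 596 with 1 library left out (596 without BcorWT replicate 1, 34 without BcorΔE9-10 replicate 2, 30 without BcorWT replicate 2), and the cause was not tested. What the replicate numbers mark is not given in the sources used here. The deviations of same-numbered libraries had a correlation of -0.0945, and the block changed no call among the members. DESeq2's size factors, no filter, a prior count of 2 and leaving out *Gm42418* (added after the data were seen) each gave 2 calls. With 38 counts in the lowest library, *Mnt* was the most limited by depth.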

Other observations

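*Gm20390*, a coding gene in GENCODE M21 that shares exon bases with the Myc target *Nme2*, had 1081 and 1143 counts in BcorΔE9-10 and 1083 and 2170 in BcorWT. The ratio of *Nme2* to *Gm20390* counts lay between 0.978 and 0.991 in all 4 libraries, so that the 2 rows hardly differ and do not make separate measurements.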
